A study of Mus musculus with 25 samples.

Results

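The 5 retinal libraries made after tunicamycin injection did not respond to the same extent, and the results below describe how genes differed among them. The series holds 25 libraries in 5 groups of 5, of which only the tunicamycin group was ordered here. Its libraries were ranked by the level of Hspa5, and genes were selected on whether they kept that rank order, had a change of like size in every library, or kept the rank order of the lens gene Cryaa. The table listed 19102 genes, and the 9920 with a mean of at least 5 FPKM over the 5 libraries were examined. FPKM counts sequenced fragments scaled by transcript length and by library size. Since the order itself chose the genes, counts of ordered genes and ranges within the group are a description and carry no test.

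All 25 libraries came from retinas of wild-type C57BL/6J mice injected in both eyes at postnatal day 30. Tunicamycin was given as 1 µL at 10 µM in saline with 0.05 to 0.1% DMSO. AA147 and Ceapin-A7, compounds described by the series as activating and inhibiting ATF6, were given at the same concentration and volume. The vehicle libraries, labelled PBS for treatment and described in the protocol as saline with DMSO, form set 1 and set 2. Tunicamycin columns carry a time of 24 h and vehicle columns carry none, so time and compound cannot be told apart. No label states that the libraries of a group were separate animals, so the p-values rest on a spread between libraries that could be technical. Vehicle set 2 was the comparison group for single libraries, because its table lists the same 19102 genes as the tunicamycin table. The Y-linked gene Ddx3y was under 1 FPKM in 4 of its 5 libraries and at 9.84 to 17.0 in the tunicamycin libraries. In every comparison with vehicle set 2, the sex of the animals therefore cannot be told apart from the treatment.

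Tunicamycin blocks the enzyme that starts the sugar chain of N-glycosylated proteins, so that unfinished proteins collect in the endoplasmic reticulum (ER). Membrane sensors respond: ATF6 and IRE1, the latter through the spliced factor XBP1, turn on chaperone, degradation and transport genes, while PERK slows translation and lets ATF4 turn on genes of amino acid supply. Hspa5 encodes BiP, the main ER chaperone and the customary readout of this response. Cryaa encodes alpha-A crystallin, a structural protein made in bulk by the lens.

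Per the protocol the cornea and lens were removed before the retina was taken. The rod transducin gene Gnat1 stood at 3788 to 4974 FPKM in the tunicamycin libraries. The 13 genes of the pigment epithelium and choroid list summed to 101 to 343 FPKM, against 285 to 449 in vehicle set 2, with Rpe65 at 0.40 to 2.63 and Tyrp1 at 0.79 to 20.7. The 9 corneal genes summed to 434 to 598 FPKM, against 523 to 816, and the sum was lowest in library 1. The keratins Krt12 and Krt5 stood at 1.11 and 0.94 in library 1 and at most at 0.24 and 0.04 in the other tunicamycin libraries. In vehicle set 2 they reached 1.52 and 0.78, both in library 5. Lens markers were present as well. The 29 lens genes together made up 0.03% of the summed FPKM in library 3 and 5.14% in library 1, against 0.03 to 1.89% in vehicle set 2. The estimated depth of the 5 libraries was 17.5 to 24.2 M fragments, from a rough fit to the low values.

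Hspa5 stood at 229, 427, 495, 581 and 1513 FPKM in tunicamycin libraries 3, 5, 2, 4 and 1. Values of single genes are given in this library order, from low to high Hspa5, throughout. The highest library thus had 6.61 times the level of the lowest, and even the lowest lay above all 20 libraries of the other groups, which reached at most 187 FPKM. In vehicle set 2 Hspa5 was 106 to 162 FPKM. The group difference from vehicle set 2 was 2.10 ± 0.28 (SE) on the log2(FPKM + 1) scale (limma adjusted p = 4.13e-05), an error that pools the spread of all groups and understates that of the tunicamycin group.

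Cryaa had another order. In the same library sequence it stood at 0.97, 2737, 2656, 52.0 and 6234 FPKM. Library 3 was lowest and library 1 highest for both genes, and library 4 set them apart, with the second-highest Hspa5 and the second-lowest Cryaa. Across vehicle set 2 Cryaa ranged from 2.92 to 2422 FPKM, overlapping the tunicamycin group. In libraries not given tunicamycin, high lens signal also occurred with Hspa5 near the low end. Library 1 of vehicle set 2 had 2422 FPKM of Cryaa and 110.2 of Hspa5, and library 1 of Ceapin-A7 had 3973 and 105.8. The part of lens tissue in the Hspa5 levels with tunicamycin was not tested.

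**Figure D1:**
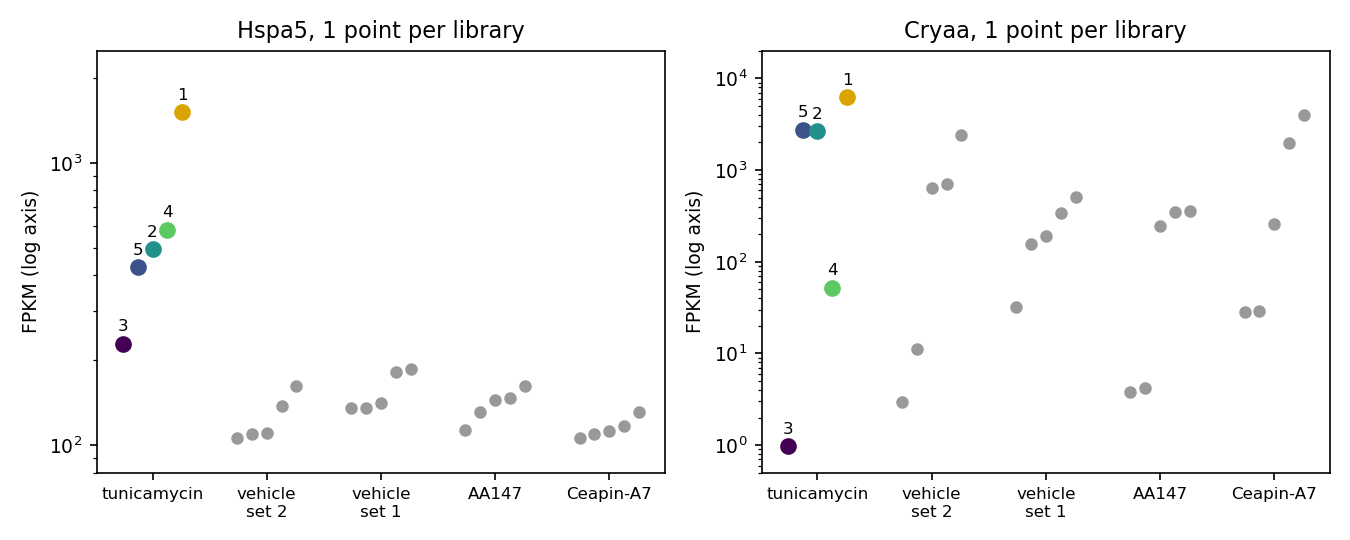
FPKM of Hspa5 (left) and Cryaa (right) on log axes, with 1 point per library; numbers mark the tunicamycin libraries, drawn in Hspa5 order, and the other groups are drawn from low to high. All 5 tunicamycin points for Hspa5 lie above the other 20, from 229 to 1513 FPKM, whereas those for Cryaa, from 0.97 to 6234 FPKM, span the range of the other groups, with library 4 low.

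Of the 9920 genes, 552 (5.56%) had exactly the Hspa5 order 3, 5, 2, 4, 1, termed upward here, and 302 (3.04%) had exactly the opposite order, termed downward. The Hspa5 order was not the most common of the 120 possible ones. That was 1, 2, 4, 5, 3, with 642 genes (6.47%). Library 1 was lowest and library 3 highest in 1891 genes, and the opposite held in 1469. Most of the upward and downward orders rested on small differences. A difference of at least 1 between the highest and the lowest library on the log2(FPKM + 1) scale, which corresponds to 2-fold at high levels, was required to call an ordered gene graded. That left 86 upward genes (0.867%) and 25 downward genes (0.252%), while 339 genes of any order reached that range. Just outside and inside this limit stood Nfe2l1 at 0.98 and Mlec at 1.00 among upward genes, and Smim40 at 0.99 and Ndp at 1.00 among downward genes. At the limit on mean level stood Zfpm2 with 4.97 and Zhx2 with 5.04 FPKM.

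The ends of the order carried most of the range. Over the 86 upward genes the median step was 0.39 from library 3 to 5, 0.21 from 5 to 2, 0.13 from 2 to 4 and 0.88 from 4 to 1, on the log2(FPKM + 1) scale. The step from library 2 to 4 was under 0.1 in 29 of the 86, so the place of these libraries relative to each other was set by small differences in many genes. Over the 25 downward genes the median of this step was -0.09, and its size was under 0.1 in 15 of them. When library 1 was left aside, 30 of the 86 upward genes and 2 of the 25 downward genes still spanned at least 1. Library 3 lay above every vehicle set 2 library in 27 of the 86 upward genes, and library 1 in 85. The genes were chosen with library 1 highest, so its count follows largely from the selection. No share over all genes stands beside these counts, and nothing is read from them.

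Promoter sequences of the graded upward genes are shown because ATF6 and ATF4 are known to act through the ER stress response element and the C/EBP-ATF response element. The first was searched as CCAAT and CCACG with 9 bases between them, and the second as TGATGNAA, on both strands. RefSeq promoters (build GRCm38.p6, 250 bases before to 50 after the start) were matched for 69 of the 86 genes. The capitals mark the match, with up to 30 bases on each side, 5′ to 3′ on the strand of the gene. ER stress elements lay at chr2:34771995-34772073 (+) for Hspa5, chr10:75893212-75893290 (+) for Derl3, chr15:88819490-88819568 (+) for Creld2 and chr8:84847045-84847123 (-) for Calr.
Hspa5: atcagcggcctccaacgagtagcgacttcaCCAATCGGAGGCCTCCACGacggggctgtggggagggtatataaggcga
Derl3: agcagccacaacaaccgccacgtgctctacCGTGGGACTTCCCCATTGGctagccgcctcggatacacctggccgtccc
Creld2: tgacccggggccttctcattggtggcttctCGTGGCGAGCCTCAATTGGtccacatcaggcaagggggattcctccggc
Calr: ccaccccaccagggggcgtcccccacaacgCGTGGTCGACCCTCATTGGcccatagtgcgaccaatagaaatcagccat

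The element ran in the direction of the gene in Hspa5 and opposite to it in the other 3 sequences. In all it was found in 7 of the 69 matched genes (10.1%), counting Hspa5, which sets the order, and those not printed were Canx, Ero1b and Pdia6. It was found in 14 of 8027 matched genes with a mean of at least 5 FPKM (0.174%) and in 39 of 32851 promoters (0.119%). Of the remaining 7 of those 14, Hsp90b1, Dnajc3 and Syvn1 missed the exact order only through libraries 2 and 4, and so did Alg12. The rest, Hnrnpa3, Pan2 and Xlr3b, were not graded, of like size or in the Cryaa order. The C/EBP-ATF element was found in 13 of the 69 (18.8%), in 2.49% of the 8027 genes and in 3.97% of all promoters. Examples lay at chr2:119351019-119351086 (+) for Chac1, chr6:7693210-7693262 (-) for Asns, chr11:120643814-120643881 (-) for Pycr1 and chr8:94386287-94386354 (+) for Herpud1.
Chac1: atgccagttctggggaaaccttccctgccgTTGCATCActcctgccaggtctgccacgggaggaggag
Asns: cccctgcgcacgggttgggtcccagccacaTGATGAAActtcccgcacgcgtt
Pycr1: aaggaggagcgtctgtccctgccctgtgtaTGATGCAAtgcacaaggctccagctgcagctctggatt
Herpud1: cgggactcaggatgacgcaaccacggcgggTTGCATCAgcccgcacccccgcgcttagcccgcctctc

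No gene had both kinds. By the lists described next, the 7 genes with the ER stress element were 5 chaperones (Hspa5, Calr, Canx, Creld2 and Pdia6), Derl3 and Ero1b. The 13 genes with the C/EBP-ATF element included the synthetase genes Aars, Gars, Iars, Tars and Yars as well as Asns, Chac1, Herpud1, Pck2, Pycr1 and Slc1a4. All of them were drawn from genes in the Hspa5 order, so the shared order is no finding about the elements. The C/EBP-ATF element was also in 2 of 21 matched downward genes (Pdlim3 and Tnnt1) and in 2 of 14 matched genes in the Cryaa order (Nupr1 and Slc7a11). A further element of the unfolded protein response, TGACGTGG, which shares its last 5 letters with the reverse of the ER stress element, was in 2 of the 69 (Sec24d and Txndc11, 2.90%) and in 1.13% of the 8027. A match of letters is a description and does not show that a factor was bound.

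ER chaperones and their cofactors were a regular upward group. Of 19 listed genes with a mean of at least 5 FPKM, 12 kept the exact order and all 12 were graded. Both counts include Hspa5, which sets the order. Among all genes examined 5.56% were in the order and 0.867% were graded upward. Sdf2l1, a cofactor of the ER Hsp40 chaperones, stood at 22.7, 43.8, 57.9, 64.6 and 181 FPKM, and at 6.21 to 8.72 in vehicle set 2. Every tunicamycin library was above the vehicle range, and each place in the order was higher than the last. Creld2 and Calr, whose promoter elements are printed with that of Hspa5, stood at 26.3, 40.2, 55.4, 59.2 and 155 FPKM and at 243, 342, 399, 413 and 897. Calr encodes the lectin chaperone calreticulin, and Creld2 a secreted ER stress protein. Hyou1, a nucleotide exchange factor for BiP, stood at 32.8, 61.8, 77.2, 89.4 and 195 FPKM. Manf, a secreted ER protein that binds BiP, stood at 113, 196, 243, 262 and 687 FPKM and had the profile most like that of Hspa5: once both were scaled from 0 in the lowest to 1 in the highest library, the largest gap was 0.03. The next nearest were Slc35b1, an ER nucleotide transporter, Xpot, the tRNA exporter, and Slc3a2, the heavy chain of amino acid transporters, each also at 0.03.

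The remaining chaperones were not all alike. Hsp90b1, Pdia4 and Dnajc3 ran in the order 3, 5, 4, 2, 1, so that only libraries 2 and 4 changed places. For Pdia4, a protein disulfide isomerase, the values were 42.4, 73.2, 85.7, 83.9 and 207 FPKM. Dnajc10, an ER reductase, differed little, at 23.4, 23.7, 20.6, 22.5 and 25.2 FPKM. The median difference of the chaperone list from vehicle set 2 was 0.34, 0.93, 1.17, 1.14 and 2.2 on the log2 scale, where the median over all genes was 0.03, 0.01, 0.00, 0.04 and 0.00. The mean log2(FPKM + 1) of the 18 chaperones other than Hspa5 was 6.50 ± 0.63 (SD, n = 5) with tunicamycin and 5.39 ± 0.06 in vehicle set 2. The 5 tunicamycin means, at 5.77, 6.27, 6.45, 6.51 and 7.49, did not overlap those of vehicle set 2, at 5.30 to 5.46 (exact permutation test, two-sided, p = 0.00794, the smallest that 5 against 5 allows).

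Genes of ER-associated degradation, which returns misfolded proteins to the cytosol, were upward in 4 of 17, of which 3 were graded. Here and for the lists below, the shares among all genes examined were 5.56% upward and 0.867% graded upward. Derl3, a subunit of the export channel, stood at 5.19, 16.9, 26.2, 29.1 and 73.4 FPKM, and at 0.74 to 1.48 in vehicle set 2. It was far above vehicle in library 3 already, and 14.1 times higher again in library 1. Herpud1, which assembles the degradation complex, stood at 50.9, 96.9, 139, 147 and 370 FPKM, with library 3 inside the vehicle range of 36.5 to 51.9. Other members hardly varied, such as the ubiquitin-conjugating enzyme gene Ube2j1 at 48.2, 48.7, 49.6, 48.6 and 52.9 FPKM.

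Among 20 genes of the XBP1 arm and ER import, 6 were upward and 4 of them graded. Xbp1 itself stood at 51.5, 67.5, 90.8, 96.4 and 203 FPKM, with library 3 inside and library 5 just above the vehicle range of 38.3 to 66.5. Ero1b, an oxidase that renews disulfide isomerases, stood at 7.00, 10.1, 12.3, 12.5 and 18.6 FPKM. Sec23b and Sec24d, coat proteins of vesicles leaving the ER, and Xbp1 were the other graded members. The list medians were 0.12, 0.37, 0.34, 0.48 and 0.83 on the log2 scale, a shallower slope than that of the chaperones. Of the stress sensors, Atf6 stood at 17.3, 21.0, 23.2, 23.8 and 37.7 FPKM and was graded. Ern1 and Eif2ak3, which encode IRE1 and PERK, Atf6b and the related factor Creb3l2 also kept the order but with a range under 1.

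In the PERK-ATF4 list 8 of 18 genes were upward and all 8 were graded. Chac1, a glutathione-degrading enzyme, had the largest range of all graded genes on the log2(FPKM + 1) scale, at 8.12, 26.5, 42.9, 47.6 and 123 FPKM. Its vehicle set 2 values of 3.54 to 19.7 FPKM enclosed library 3 and lay below the other libraries. Sesn2, an inhibitor of mTORC1 signalling, stood at 10.2, 23.7, 34.7, 41.1 and 84.3 FPKM, and again only library 3 lay within the vehicle range of 8.73 to 16.2. Ddit3, which encodes the factor CHOP, stood at 63.9, 117, 138, 135 and 343 FPKM, and Trib3, a pseudokinase it induces, at 10.4, 21.5, 26.2, 25.8 and 74.7. Both placed library 2 just above library 4, as did Atf4 at 249, 263, 350, 338 and 572 FPKM. Ddit4, a stress-induced inhibitor of mTORC1, did not follow the order, at 92.3, 80.3, 81.9, 86.1 and 91.8 FPKM.

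Of 11 enzymes that make amino acids and one-carbon units, 8 were upward and all 8 graded. Asns, asparagine synthetase, stood at 30.2, 53.3, 75.2, 84.1 and 203 FPKM. Pycr1, of proline synthesis, stood at 0.93, 3.94, 5.84, 6.57 and 23.7 FPKM, and Mthfd2, of mitochondrial folate metabolism, at 7.66, 15.9, 27.8, 30.8 and 86.2. Their levels in library 3 lay within the vehicle ranges of 20.1 to 37.2, 0.34 to 1.91 and 4.76 to 15.1 FPKM. Aldh18a1, which precedes Pycr1 in proline synthesis, and Aldh1l2, another folate enzyme, followed the same pattern. The list medians were 0.03, 0.62, 0.95, 1.08 and 2.43, so library 3 was almost level with vehicle and library 1 stood far above it.

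Amino acid transporters were upward in 8 of 10 genes, and 5 were graded. Slc7a5, the large neutral amino acid transporter, stood at 22.3, 49.0, 70.3, 84.2 and 205 FPKM. Its vehicle set 2 values of 24.2 to 66.5 FPKM were above library 3 and enclosed library 5. Slc7a3 and Slc7a1, carriers of cationic amino acids, stood at 2.56, 13.8, 15.2, 18.6 and 44.2 FPKM and at 2.65, 5.65, 10.2, 10.7 and 34.6. Slc1a4, a carrier of neutral amino acids such as serine, stood at 7.99, 16.8, 24.5, 26.9 and 64.8 FPKM. The list median in library 3 was -0.17, and in library 1 it was 2.22.

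Cytosolic tRNA synthetases, which load amino acids onto tRNA, kept the order with smaller ranges. Of 20, 13 were upward and 11 graded. Gars, the glycine enzyme, stood at 54.7, 68.0, 91.5, 99.4 and 233 FPKM, and Nars, the asparagine enzyme, at 104, 137, 157, 189 and 333. The glutamine enzyme gene Qars went the other way at its ends, at 30.0, 30.5, 28.5, 28.3 and 25.6 FPKM, and the aspartate enzyme gene Dars stood at 29.4, 30.2, 25.9, 26.8 and 26.0. Of 20 N-glycosylation genes 3 were upward and all 3 graded, where 5.56% of all genes were upward and 0.867% graded upward. Dpagt1, which encodes the enzyme that tunicamycin blocks, stood at 9.08, 13.0, 12.6, 13.5 and 22.2 FPKM and missed the exact order through libraries 5 and 2.

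The lists above held 54 of the 86 graded upward genes, the apoptosis list held Cdkn1a, and 31 were in no list. Among these 31 were Serp1, a translocon partner, Eif2s2, a subunit of initiation factor eIF2, and Gpt2 and Pck2, mitochondrial enzymes of alanine and phosphoenolpyruvate metabolism. Gpt2 stood at 4.23, 6.84, 11.8, 12.1 and 28.7 FPKM. Cox6a2, the muscle form of a respiratory chain subunit, stood at 0.51, 3.74, 4.4, 6.27 and 14.2 FPKM, although libraries of the other groups reached up to 11.2. Serp1, Eif2s2, Gpt2 and Pck2 were picked out after their values were seen.

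**Figure D2:**
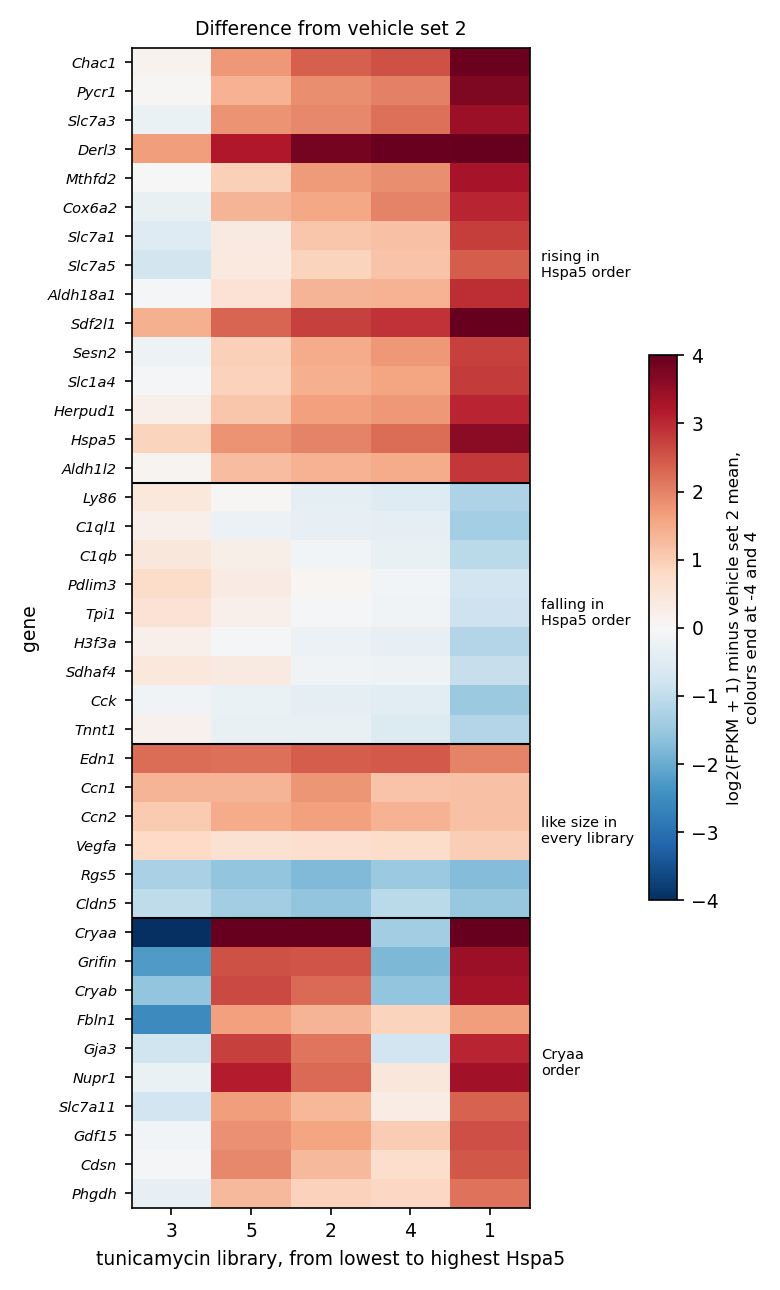
Difference of each tunicamycin library (columns, from low to high Hspa5) from the vehicle set 2 mean in log2(FPKM + 1) for the named genes (rows), in 4 classes. The 15 upward genes darken from library 3 to library 1, the 9 downward genes shade towards blue, the 6 genes of like size keep their colour, and the 10 genes in the Cryaa order are lowest in library 3 and second-lowest in library 4.

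The comparison of group means is a separate measure from the order within the tunicamycin group. Against both vehicle sets limma called 5.39% of the 9920 genes higher and 1.78% lower. Over all 13117 genes tested 613 rose and 270 fell, a split that became 453 and 427 after median-ratio scaling, and fitting only the compared groups called 332 in place of 883. Of the 86 graded upward genes 67 rose and 0 fell, with a median change of 0.81 on the log2 scale against 0.03 for all genes. This count leans on the selection, because 13 of the 86 had a vehicle set 2 mean under 5 FPKM and reached the mean of 5 through their level with tunicamycin. Among genes with means above 5 FPKM in both vehicle sets, Sdf2l1 rose by 2.64 ± 0.26, Sesn2 by 1.59 ± 0.26 and Herpud1 by 1.57 ± 0.24 (limma adjusted p = 2.24e-06, 0.00682 and 0.00138). Derl3, with a vehicle set 2 mean of 0.95 FPKM, changed by 3.66 ± 0.31 and was examined only because of its level with tunicamycin. Slc7a5 and Slc7a1, with library 3 at or below the vehicle level, changed by 1.21 ± 0.31 and 1.01 ± 0.31 against the averaged vehicle sets. They did not pass against both sets (larger limma adjusted p = 0.148 and 0.0852). Their differences from vehicle set 2 alone were 0.83 and 0.97. By list, 16 of 19 chaperone genes, 17 of 20 of the XBP1 arm, 11 of 18 of the PERK-ATF4 list, 9 of 11 amino acid synthesis genes, 4 of 10 transporters and 9 of 20 synthetases rose, and none of them fell.

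Other groups did not hold a comparable spread of Hspa5. Ordered by their own Hspa5, whose highest to lowest ratio was 1.24 to 1.52, the genes in exact upward and downward order made up 1.9 and 1.21% in vehicle set 2 and 1.13 and 0.506% in vehicle set 1. They made up 2.29 and 1.6% with AA147 and 0.602 and 0.541% with Ceapin-A7. Graded upward genes of the tunicamycin group that reached 5 FPKM in vehicle set 2 were higher in its highest-Hspa5 than in its lowest-Hspa5 library in 60 of 72, where 57.9% of all genes were. The same count was 50 of 69 in vehicle set 1 (62.2% of all genes), 39 of 69 with AA147 (54.8%) and 44 of 69 with Ceapin-A7 (53.8%). Each count sets 1 library against 1. In vehicle set 2 these were libraries 5 and 3, with the Y-linked Ddx3y at 16.3 and 0 FPKM. With AA147 they were libraries 2 and 4, with Ddx3y at 12.2 and 0 FPKM. In those pairs the sex of the animals cannot be told apart from the Hspa5 level. The downward genes were higher in the highest-Hspa5 library in 17 of 25, 17 of 24, 17 of 25 and 20 of 25. In the same sequence of groups that is 68, 70.8, 68 and 80%, against 57.9, 62.2, 54.8 and 53.8% of all genes. With few genes and 1 pair of libraries per group, nothing is read from these shares.

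The 25 downward graded genes were then set against the lists. None was in the stress lists, 2 were in other lists and 23 in none. Ly86, a partner of the innate immune receptor RP105, stood at 8.61, 6.43, 4.61, 4.09 and 2.05 FPKM, against 4.90 to 8.63 in vehicle set 2. C1qb, a complement component made by microglia, stood at 14.0, 11.98, 9.08, 7.95 and 4.19 FPKM, with library 3 above and libraries 4 and 1 below the vehicle range of 8.16 to 12.6. C1ql1, a synaptic C1q-like protein, stood at 70.5, 51.5, 47.8, 46.5 and 23.3 FPKM. Tpi1 and Pgam1, glycolytic enzymes, stood at 788, 604, 508, 477 and 292 FPKM and at 702, 598, 559, 490 and 346. Libraries 3 and 5 were above the vehicle set 2 range for both, and libraries 4 and 1 were below it. In vehicle set 1 the means of Tpi1 and Pgam1 were 682 and 569 FPKM.

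Other downward genes had various roles. Sdhaf4, an assembly factor of succinate dehydrogenase, stood at 46.4, 44.0, 31.2, 29.3 and 17.5 FPKM, and Ndufa3, a subunit of complex I, at 255, 210.0, 159, 138 and 108. Cck, the neuropeptide cholecystokinin, stood at 18.3, 16.4, 15.02, 14.6 and 6.57 FPKM, all 5 below the vehicle set 2 range of 19.6 to 21.5. It was the 1 graded downward gene that limma called, with a change of -0.52 ± 0.13 (limma adjusted p = 0.0227). Tnnt1, a troponin, stood at 26.8, 19.29, 19.28, 15.9 and 10.1 FPKM, so libraries 5 and 2 were almost level. Its change did not pass (limma adjusted p = 0.0600).

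Transcript length differed between the classes. The median was 1205 bases in the 25 downward genes, 2343 in the 86 upward genes and 2164 in all genes with a length. Of the 25, 40% were shorter than 1000 bases, against 19.0% of all. The median difference from vehicle set 2 of genes under 1000 bases was 0.09 in library 3 and -0.07 in library 1, and that of genes of 3000 bases or more was -0.01 and 0.05. The part of length in the downward order was not tested beyond these values.

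The list medians of several retinal cell types were lowest in library 1, though single markers could be lowest in another. On the log2 scale its median relative to vehicle set 2 was -0.28 for rods, -0.35 for cones, -0.31 for bipolar cells, -0.46 for Müller glia and -0.75 for microglia. In library 3 these medians were 0.00, 0.19, 0.06, 0.14 and 0.28. Glul, the glutamine synthetase of Müller glia, stood at 766, 841, 651, 921 and 327 FPKM, so library 1 was low and the other 4 did not run in the Hspa5 order. In bulk tissue fewer cells of a type and less RNA per cell cannot be told apart. The part of these shifts and of the lens share in the graded order was not tested.

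**Figure D3:**
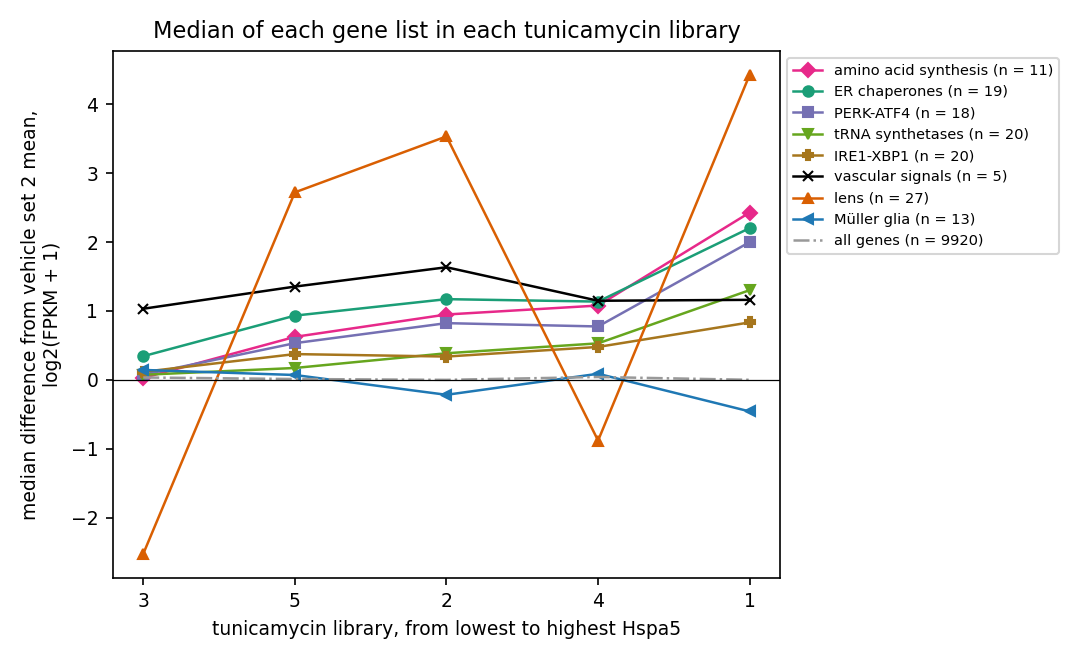
Median difference from the vehicle set 2 mean in log2(FPKM + 1) for 8 gene lists and all genes (vertical axis) in each tunicamycin library (horizontal axis, from low to high Hspa5). The stress lists climb from library 3 to library 1, from 0.34 to 2.2 for the chaperones, the 5 vascular signals, 4 of which were chosen for a like size in every library, stay between 1.03 and 1.63, and the lens list drops in libraries 3 and 4.

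A small set of genes, most of them known from vessels, differed from vehicle set 2 to a like extent in every tunicamycin library, whatever its Hspa5. Genes were first required to have every tunicamycin library beyond all 5 vehicle set 2 libraries, by at least 0.5 from their mean on the log2 scale. This held for 14 genes as higher (0.141%) and 6 as lower (0.0605%). The range among the tunicamycin libraries was then required to be at most 50% of the mean difference, which left 4 higher and 2 lower genes. The contrast with vehicle set 2 chose them, so their differences are a description.

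Edn1, the vasoconstrictor endothelin-1, stood at 11.01, 10.8, 12.6, 12.9 and 9.19 FPKM, and at 1.2 to 1.8 in vehicle set 2. Library 1, with the highest Hspa5, had the lowest Edn1 of the 5. Ccn1 and Ccn2, matricellular proteins induced in vessels and fibroblasts, stood at 11.9, 11.8, 15.9, 10.1 and 10.4 FPKM and at 18.3, 25.3, 28.4, 23.6 and 20.2. Their vehicle ranges were 2.25 to 7.79 and 6.61 to 11.9. Vegfa, the vascular growth factor, stood at 122, 108, 112, 117 and 139 FPKM against 54.9 to 94.1. Library 3, lowest in Hspa5, lay among the other libraries for Edn1, Ccn1 and Vegfa and was lowest for Ccn2.

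Rgs5, a regulator of G-protein signalling that marks pericytes, stood at 6.62, 5.23, 4.50, 5.61 and 4.55 FPKM, against 15.8 to 20.8 in vehicle set 2. Cldn5, the tight junction protein of the endothelial barrier, stood at 7.29, 5.38, 4.62, 7.02 and 4.81 FPKM against 13.6 to 20.9. Both were slightly less reduced in library 3 than in library 1. All 5 tunicamycin values of Edn1, Ccn1, Ccn2 and Vegfa were above, and all those of Rgs5 and Cldn5 below, each of the 20 libraries of the other groups. For the 5 libraries of vehicle set 2 among them the rule itself required this. Ddx3y, a Y-linked gene, stayed below 1 FPKM in 4 libraries of vehicle set 2, and in 0 of the 5 tunicamycin libraries and 0 of the 5 in vehicle set 1. The sex of the animals thus cannot be told apart from the treatment in vehicle set 2, and against vehicle set 1 the rule also chose these genes except Vegfa. Against vehicle set 1, whose table lists other genes, the rule chose 343 genes.

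When genes with a mean of at least 5 FPKM in either table were admitted, Ly6c1, Ly6a and Slco1c1 joined as lower. Ly6c1, an endothelial surface protein, stood at 4.93, 2.34, 2.71, 3.69 and 2.84 FPKM against 14.8 to 23.2. Slco1c1, a thyroxine transporter of the blood-brain barrier, stood at 1.34, 1.66, 1.41, 2.05 and 1.51 FPKM against 3.89 to 5.72. Not all genes beyond vehicle in every library were of like size. Hspa5, Derl3, Sdf2l1 and Creld2 were graded, and Trib3 and Fkbp11 differed widely among libraries without keeping the exact order. Mgp, a matrix protein, stood at 10.3, 6.80, 1.68, 7.92 and 1.76 FPKM against 16.4 to 39.2, a range of 6.15-fold among the tunicamycin libraries.

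Genes that kept the Cryaa order 3, 4, 2, 5, 1 with a range of at least 1 numbered 17 (0.171%), and 3 genes kept the opposite order. Of 27 lens genes with a mean of at least 5 FPKM, 0 kept the Hspa5 order, upward or downward. The exact Cryaa order was kept by 4: Cryab, Grifin, Gja3 and Cryaa itself, which sets it. Cryab, the other alpha crystallin, stood at 71.6, 1360, 1043, 72.3 and 2217 FPKM. Grifin, a lens galectin, stood at 0.14, 31.2, 30.0, 0.58 and 58.2 FPKM, and Gja3, a lens gap junction protein, at 0.02, 10.8, 6.85, 0.04 and 13.8. Libraries 3 and 4 were far below the other 3 in each of these genes.

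The other crystallins differed only in the order of libraries 2 and 5, which for Cryaa itself were 2656 and 2737 FPKM. Crybb2 stood at 0.48, 902, 1040.0, 26.1 and 2259 FPKM, and Crygs at 0.54, 529, 676, 21.7 and 1342. With these 2 libraries in either order, a choice added after seeing the data, 42 genes followed, of which 24 were lens genes. The summed lens list, as log2(FPKM + 1), was 11.3 ± 3.21 (SD, n = 5) with tunicamycin and 10.1 ± 2.76 in vehicle set 2, a difference of 1.22 that did not pass (exact permutation test, two-sided, p = 0.532). None of 28 lens genes tested in limma was called.

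Several genes in the Cryaa order belong to the stress response by their lists. Nupr1, a stress-induced chromatin protein, stood at 48.2, 520, 284, 78.9 and 601 FPKM against 16.6 to 151 in vehicle set 2, so that library 4 stood with library 3 inside the vehicle range. Slc7a11, the cystine transporter, stood at 0.75, 8.50, 6.4, 2.67 and 14.1 FPKM, and Gdf15, a secreted stress cytokine, at 1.2, 7.40, 6.07, 3.76 and 13.1. Phgdh, which starts serine synthesis, stood at 8.52, 28.2, 21.7, 20.0 and 52.9 FPKM, with library 4 close to library 2. The enzymes after it in that pathway, Psat1 at 20.4, 36.1, 44.6, 47.1 and 129 FPKM and Psph at 14.4, 18.9, 20.6, 21.8 and 37.5, kept the Hspa5 order instead. Of the 17 genes limma called 4 as higher, against 5.39% of all genes examined: Gdf15, the desmosome-associated Cdsn, the cationic amino acid carrier Slc7a2 and Magt1, a subunit of the glycosylation complex. Their vehicle set 2 means were 1.84, 1.68, 3.21 and 4.01 FPKM, so all 4 reached a mean of 5 only through their level with tunicamycin, and nothing is read from the calls. Nupr1 changed by 2.21 ± 0.52 and Phgdh by 1.41 ± 0.28 against the averaged vehicle sets. Neither passed against both sets (larger limma adjusted p = 0.0622 and 0.0609). Their differences from vehicle set 2 alone were 1.79 and 0.98.

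Fbln1, a matrix protein, and Slc6a13, a GABA and taurine carrier, were in the Cryaa order without being lens genes. Fbln1 stood at 0.52, 26.7, 21.7, 15.5 and 27.3 FPKM, so that library 3 alone was low, and its vehicle set 2 values ran from 0.91 to 38.7. Slc6a13 stood at 1.22, 7.70, 6.56, 3.90 and 8.91 FPKM.

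**Figure D4:**
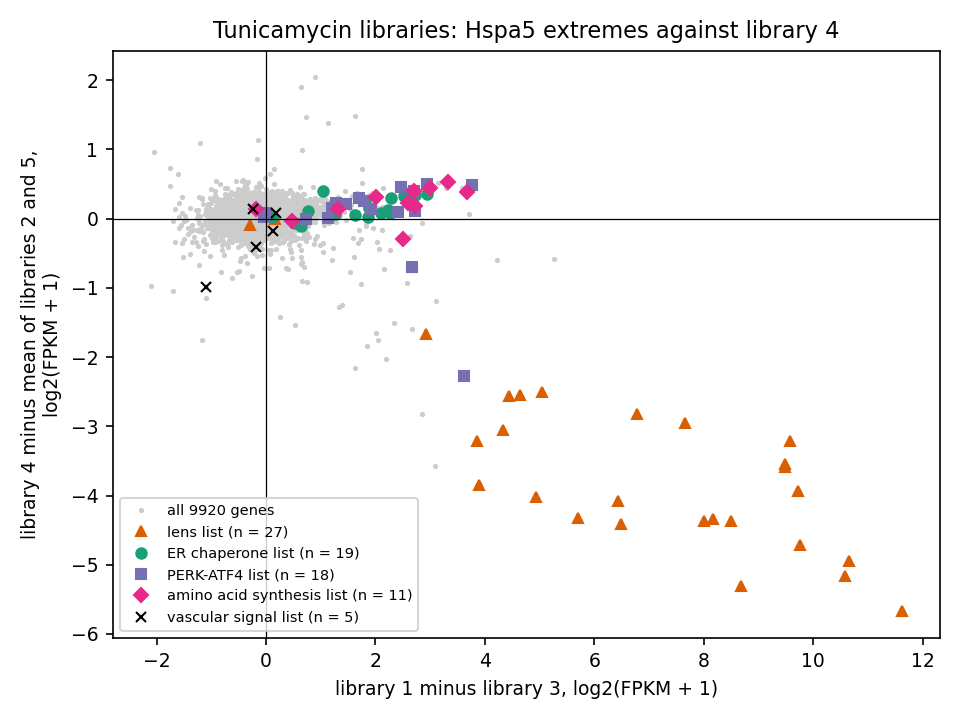
Each of 9920 genes by its difference between tunicamycin libraries 1 and 3 (horizontal axis) and by library 4 minus the mean of libraries 2 and 5 (vertical axis), both in log2(FPKM + 1). Chaperone and amino acid synthesis genes reach no lower than -0.30 (Phgdh) on the vertical axis, 25 of 27 lens genes lie below -1, and among PERK-ATF4 genes Nupr1 and Gdf15 lie below 0.

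Library 4 was also set against the mean of libraries 2 and 5, the libraries nearest to it in Hspa5. On the log2 scale the list median of this difference was 0.13 for chaperones, 0.14 for the PERK-ATF4 list, 0.22 for amino acid synthesis and -3.85 for the lens list, against 0.04 for all genes. For Hspa5 it was 0.34, for Nupr1 -2.27 and for Cryaa -5.67, whose signs follow from the orders that chose the genes. Pigment genes had yet another order. Dct, an enzyme of melanin synthesis, stood at 3.15, 38.8, 5.24, 57.9 and 5.47 FPKM, and Tyrp1, Pmel and Mlana shared its order, with libraries 4 and 5 high and the rest low.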

How the data were processed

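The values deposited by the authors are FPKM per gene, 1 table per group with 2 decimals, and per the submitters' processing notes HISAT2 2.0.4, RSEM 1.2.18, DESeq2 1.4.5 and the build GRCm39 were used, with no role or order given. FPKM is not a count, so count models were not applied, and precision is limited by an unstated depth. Columns were matched to samples by name. The tables of tunicamycin, vehicle set 2 and Ceapin-A7 list 19102 genes, those of vehicle set 1 and AA147 another set, so levels set across them compare tables made separately.

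Exact orders were counted in genes with a mean of at least 5 FPKM (ties did not count). Differences are in log2(FPKM + 1), which understates the change of low genes. limma 3.58.1 (R 4.3.3, intensity trend) was fitted to all 25 libraries for 13117 genes at 1 FPKM in at least 5 libraries. A gene was called when the larger of its Benjamini-Hochberg adjusted p-values against the vehicle sets was under 0.05 and the direction was shared. Group changes use the 2 vehicle sets averaged, except where vehicle set 2 is named. The adjusted p printed beside an averaged change is the larger of the 2, so it does not test that average. Sums and means per library were compared by exact permutation. Scripts ran in Python 3.11.15 with numpy 2.4.6, pandas 2.3.3, scipy 1.17.1 and matplotlib 3.10.9 and were tested on simulated data.

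The genes, lists (32) and rules were chosen with earlier results of these data known. Named genes were Hspa5, Cryaa, the 15 upward, 10 downward and 10 Cryaa-order graded genes of largest range, the genes of like size, and list members where a list is described; 1 downward gene of these is not reported here. Alternatives were other mean limits, pseudocounts, scalings, ranges, vehicle sets, reference profiles, a replicate block and leaving out each library. Depth was estimated from the spacing of low FPKM values, and median transcript lengths per gene came from GENCODE vM21, matched by gene ID and used for lengths only.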

Additional observations from a re-analysis of the deposited data

Results flagged for a closer look

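Single extreme libraries were sought in 45 sets of 5 library values, those of the named genes and list scores, on the log2(FPKM + 1) scale. The gap between the highest or lowest library and its nearest neighbour was compared with the range. On that scale 2 sets were past Dixon's limit of 0.71, Cck with a ratio of 0.776 and Fbln1 with 0.816. The FPKM printed below would give other ratios. Chance alone passes that limit in about 1 of 20 sets. Cck was 6.57 FPKM in tunicamycin library 1, against 14.6 to 18.3 in the other 4 libraries. Fbln1 was 0.52 FPKM in tunicamycin library 3, against 15.5 to 27.3 in the others.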

How the results depend on the processing

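FPKM tables carry no counts, so no counting interval could be given, and with 5 libraries an exact order is easily gained or lost. Without each tunicamycin library in turn, upward genes numbered 858 to 1276 and downward genes 516 to 1730. Graded genes (111 in all) numbered 33 to 211: 33 without library 1, of which 27 were among the 111, 189 without library 2, 72 without library 3 and 211 without library 4. Genes in the Cryaa order numbered 20 to 75, genes of like size 4 to 13 (11 without library 1 or 3, 13 without library 5 of vehicle set 2), and genes called by limma 481 (without tunicamycin library 1) to 1513 (without library 3). Fewer libraries leave fewer places to keep.

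With libraries 2, 4 and 5 in any order, an alternative added after seeing the data, 1469 genes were upward, 1891 downward and 243 graded. A range of 1.5-fold gave 275 graded genes. Genes in the Cryaa order became 33 at a mean of 1 FPKM, 8 at 10 FPKM, 28 after rescaling without lens genes and 42 with libraries 2 and 5 in either order. Genes of like size became 343 against vehicle set 1, 1 with a range limited to 25% of the difference and 3 with an SD of at most 0.2. Fitting only the compared groups gave 332 limma calls in place of 883, and the cause was not tested. Median-ratio scaling gave 453 higher and 427 lower in place of 613 and 270, while 78 of the 86 upward and 21 of the 25 downward graded genes remained. The mean of the other chaperones has the library order of Hspa5, so ordering by it could give no other counts.

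Without each library the chaperone difference was 0.86 to 1.29 and the lens difference 0.45 to 2.29. Of 441 alternatives for the limma changes of 21 named genes 431 kept direction and side of the threshold, 5 lost and 5 gained a call and 0 reversed. With the replicate number as a block 866 genes were called in place of 883. The numbers did not pair the libraries: same-numbered libraries correlated at -0.43 to 0.40 in their deviations, and 1 of 10 correlated best with its own number.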
